A study of Homo sapiens with 8 samples.

Results

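The kinesins and the mitotic spindle genes were examined in SKBR3, an established line of human breast cancer cells with amplification of ERBB2 (HER2), without and with knockdown of FOXA1, a transcription factor that opens chromatin in luminal cells. Members were taken by name: every row of the deposited count table whose symbol was KIF followed by a number and at most one letter from A to C, and 28 further genes of the kinetochore, the spindle checkpoint, the chromosomal passenger complex, anaphase and cytokinesis. This gave 66 of the 30434 genes in the table, 38 of them kinesins. The 8 libraries were 4 from control SKBR3 cells, labelled WT, and 4 from SKBR3 cells labelled FOXA1 knockdown, a stable line made with lentiviruses carrying shRNAs against FOXA1 mRNA. All cells grew in the same serum-containing medium, and RNA was taken from the whole culture. Whether the control cells carried a control vector, and whether replicates were separate cultures, is not given in the sources used here, so p-values measure the spread between these libraries, which may be technical.

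Kinesins are motor proteins that burn ATP to walk along or take apart microtubules. In dividing cells one set of them builds the spindle, moves chromosomes and organises the midzone, together with kinetochores that hold chromosomes on microtubules and a checkpoint that delays anaphase until every chromosome is attached. Transcripts of these mitotic genes accumulate in G2 and M phase, and many of their promoters carry a cell cycle genes homology region (CHR), the element read by the DREAM and MuvB complexes, together with CCAAT boxes bound by NF-Y. The other kinesins carry vesicles and organelles, serve cilia or tune microtubule growth in cells that are not dividing.

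The promoters are shown first because reading them needs no measured value. Members were divided by a list of roles and not by motif. The motifs searched on both strands were CHR, written TTTGAA or TTCGAA, and the CCAAT box, written CCAAT, over 250 bases before and 50 after each RefSeq start (GRCh38.p14), where 55 of the 66 members had an entry. A gene with several starts was counted if any of its windows held the motif. CHR was present in 10 of 12 mitotic kinesins and in 18 of 23 other spindle genes with an entry, but in 2 of 20 of the remaining kinesins, KIF5B and KIF24, against 19.54% of the 27305 genes with a promoter in the same table. CHR and CCAAT occurred in the same window in 9 of 12 mitotic kinesins and 14 of 23 spindle genes, against 2 of 20 other kinesins and 7.85% of all genes. A CCAAT box with or without CHR was in 28 of 35 mitotic members and in 7 of 20 other kinesins, the latter 35% against 39.72% of all genes. The first base of CHR was at -28 in KIF11, -27 in KIF22, -34 in KIF4A, -29 in PLK1, -31 in ESPL1 and -23 in BUB1B, where -1 is the last base before the start. A forkhead motif, written TGTTTAC or TGTTTGC, was found in 1 of 55 members, PRC1, against 8.68% of all genes. Of the mitotic members with an entry, KIF20A, PTTG1, AURKB, KIF2C, NEK2, SPC24 and CENPE held no CHR. KIF20A, PTTG1 and AURKB were the only mitotic members called at least 2-fold higher in the test below, 3 of 39 tested. Among all genes tested 14.9% were called at least 2-fold higher, so this is no special trait of the members. Members with CHR included ECT2 and PRC1, called lower, and KIF14, KIF20B, KIF23 and INCENP, not called. Whether CHR goes with the change was not tested. A match of letters is a description and not a binding site, and no binding was measured here.

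The 120 bases before the start are shown for 6 mitotic members, chosen as examples among those whose stretch holds no annotated exon, with CHR and CCAAT motifs of either strand in capitals, so that a CCAAT box of the other strand reads ATTGG. They are KIF11 (chr10:92593010-92593129, plus strand), KIF14 (chr1:200620752-200620871, minus strand), KIF18B (chr17:44947774-44947893, minus strand), ESPL1 (chr12:53268179-53268298, plus strand), CENPF (chr1:214603075-214603194, plus strand) and MKI67 (chr10:128126424-128126543, minus strand). In KIF14, KIF18B and CENPF the CHR lies after the start, at 2, 3 and 41, and so outside the stretch. In MKI67 one CHR and a reversed CCAAT box share a base.
KIF11: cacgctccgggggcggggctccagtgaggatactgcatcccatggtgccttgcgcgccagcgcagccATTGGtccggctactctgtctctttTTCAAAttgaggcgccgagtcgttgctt
KIF14: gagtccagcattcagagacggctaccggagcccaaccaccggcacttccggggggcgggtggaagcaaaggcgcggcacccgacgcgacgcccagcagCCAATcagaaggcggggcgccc
KIF18B: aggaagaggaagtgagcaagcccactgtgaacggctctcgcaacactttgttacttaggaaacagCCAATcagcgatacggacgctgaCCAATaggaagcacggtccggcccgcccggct
ESPL1: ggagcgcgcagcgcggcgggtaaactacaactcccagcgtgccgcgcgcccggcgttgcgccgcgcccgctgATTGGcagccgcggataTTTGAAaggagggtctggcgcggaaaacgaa
CENPF: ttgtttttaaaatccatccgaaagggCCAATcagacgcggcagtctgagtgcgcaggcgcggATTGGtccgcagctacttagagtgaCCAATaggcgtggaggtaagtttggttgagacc
MKI67: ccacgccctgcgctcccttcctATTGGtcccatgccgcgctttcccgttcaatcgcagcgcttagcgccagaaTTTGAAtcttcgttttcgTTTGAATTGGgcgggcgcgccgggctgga

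The same stretch is shown for 4 of the other kinesins, chosen as examples that hold neither motif there and were called in the test below. Other called kinesins of that group do hold motifs: KIF3B has a CCAAT box at -78, and KIF24 has CCAAT boxes and a CHR. KIF5C has a CCAAT box farther out, at -222. They are KIF5C (chr2:148875107-148875226, plus strand), KIF13A (chr6:17987636-17987755, minus strand), KIF16B (chr20:16573449-16573568, minus strand) and KIF26A (chr14:104138467-104138586, plus strand).
KIF5C: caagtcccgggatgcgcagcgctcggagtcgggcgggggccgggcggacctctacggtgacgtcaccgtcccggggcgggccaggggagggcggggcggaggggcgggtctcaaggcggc
KIF13A: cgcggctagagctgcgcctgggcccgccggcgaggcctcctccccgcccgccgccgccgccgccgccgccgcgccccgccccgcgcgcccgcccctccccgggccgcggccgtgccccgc
KIF16B: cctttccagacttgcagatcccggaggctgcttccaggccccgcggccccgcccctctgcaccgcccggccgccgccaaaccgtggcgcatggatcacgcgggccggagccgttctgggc
KIF26A: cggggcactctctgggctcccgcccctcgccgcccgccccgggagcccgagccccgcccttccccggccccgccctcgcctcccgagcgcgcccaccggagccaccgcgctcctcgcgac

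Values are counts scaled to 1000000 per library after TMM normalisation (CPM), and changes are log2 fold changes of knockdown over control from edgeR's quasi-likelihood test, adjusted by Benjamini-Hochberg over the 16430 genes that passed a filter on low counts, with a threshold of 0.05. Library totals lay between 19087878 and 23786684 counts. The targeted gene FOXA1 (chromosome 14, 37589984 to 37596059, minus strand, GENCODE 29 on GRCh38, as for all positions) had 191, 192, 193 and 189 CPM in control replicates 1 to 4 and 3.78, 3.56, 4.23 and 4.26 CPM in knockdown replicates 1 to 4, and its log2 fold change was -5.603 (SE 0.0630, edgeR adjusted p = 3.19e-30). Among the controls, replicate 3 was far from its group on the second principal component, at -40.1 against 9.53 to 16.3. Of 39 tested mitotic members, it was the lowest control in 22 and the highest in 11. Of the SKBR3 markers expected to be high, ERBB2, GRB7 and KRT19 were lower and KRT8, KRT18 and EPCAM higher in knockdown, and of those expected to be low, ESR1 had between 28 and 35 counts in control and at most 2 in knockdown, PGR at most 4 in any library, and CDH1 at most 3 in control and 13 in knockdown. The 5 of 6 fibroblast markers with a row in the table summed to between 5.27 and 6.98 CPM in control and between 10.8 and 11.9 CPM in knockdown. COL1A1 was lower (5.38 to 4.33 CPM) and PDGFRB higher, COL3A1 went from at most 1 count to between 90 and 104, COL1A2 had at most 3 counts and DCN at most 1, and LUM had no row. The 4 of 5 haematopoietic markers with a row summed to between 1.14 and 1.80 CPM in all libraries, with at most 3 counts of PTPRC. The 4 endothelial markers summed to between 19.8 and 22.4 CPM, but CDH5 was higher (331 to 375 counts in control, 379 to 478 in knockdown) and VWF lower (105 to 130 counts, then 12 to 22), with PECAM1 at most at 6 counts and KDR at 0 in control and at most at 7 in knockdown. The part of these markers in the results below was not tested.

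Of the 66 members, 61 passed the filter, and 42 of these were higher and 10 lower in knockdown, while 9 did not pass the test. Among all genes tested 77.1% were called by the same test, 39.4% higher and 37.7% lower. Groups that did not overlap in CPM were also common: 36.9% of all genes tested lay wholly higher in knockdown and 35% wholly lower. Of the 61 members, 42 lay wholly higher and 10 wholly lower, so a lack of overlap in a single member below is no special trait. The median log2 fold change of the 61 members was 0.43, and that of all genes tested 0.019. Of 39 tested mitotic members, 31 were higher, 3 lower and 5 not called, with a median of 0.44 and values from -0.60 to 1.70. The 22 tested kinesins not listed as mitotic had 11 higher, 7 lower and 4 not called, with a median of 0.16 and values from -4.10 upwards. KIF19, KIF1A and KIF5A passed the filter only through the knockdown group, so they had to differ and lend nothing to the counts of 11 and 42. The medians of 0.16 and 0.43 include these high values and are raised by them, so the 0.16 shows no rise of the other kinesins as a set. The 5 members that did not pass were KIF4B, KIF6, KIF17, KIF25 and KIF26B, and KIF2B had no row in the table. In a culture sampled as a whole, more cells in G2 or M phase and more RNA per such cell cannot be told apart.

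**Figure D1:**
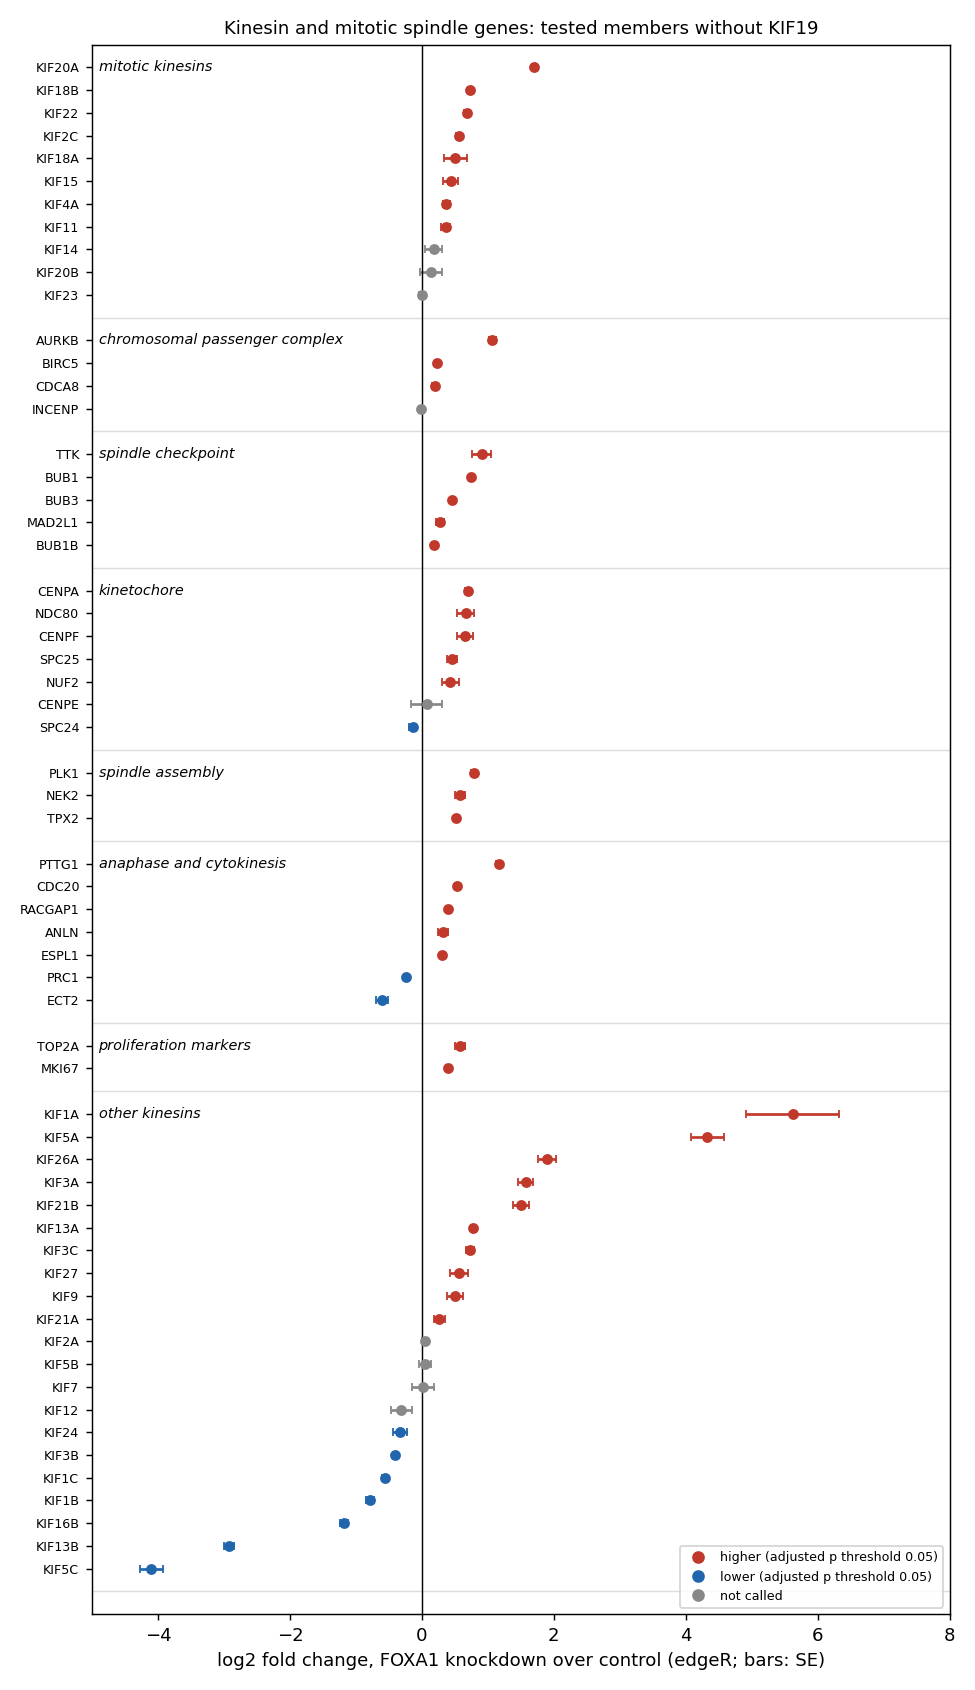
Log2 fold change of knockdown over control on the horizontal axis for each tested member, grouped by role, with bars for the SE over 4 libraries a group; red points were higher, blue lower and grey not called. Mitotic members sit mostly between 0 and 1.2 with KIF20A at 1.70, while the other kinesins spread from -4.10 to 5.62; KIF19, with 0 counts in every control, is left out.

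Among the mitotic kinesins, 8 of 11 tested were higher, none was lower and 3 were not called, with a median of 0.44. KIF20A (chromosome 5, 138178719 to 138187715, plus strand), which carries the chromosomal passenger complex to the midzone for cytokinesis, had 68.6, 73.2, 68.8 and 69.2 CPM in control replicates 1 to 4 and 224, 228, 228 and 231 CPM in knockdown replicates 1 to 4. The lowest knockdown library was well above the highest control, and the mean was 3.25-fold higher (log2 fold change 1.702, SE 0.0236, edgeR adjusted p = 1.91e-23). The 50 nearest tested coding genes of KIF20A had a median log2 fold change of 0.50, and with that regional shift taken out its value was 1.202. Here and below the shift is a fixed value, so calls made with it ignore the error of the neighbour median. Its ends overlap exons of CDC23 by 68 bp and of BRD8 by 132 bp on the opposite strand.

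The kinesin-8 motor KIF18B, which shortens microtubule plus ends, went from a mean of 30.99 ± 1.47 in control to 51.5 ± 1.12 in knockdown (CPM with SD, 4 libraries a group), and the chromokinesin KIF22, which pushes chromosome arms from the poles, from a mean of 111 ± 6.17 in control to 179 ± 5.01 in knockdown (CPM with SD, 4 libraries a group). Their log2 fold changes were 0.73 and 0.68. The microtubule depolymerase KIF2C, which corrects wrong attachments at centromeres, reached 0.56, from a mean of 112 ± 4.59 in control to 165 ± 3.62 in knockdown (CPM with SD, 4 libraries a group). None of these 3 genes had overlapping groups. KIF11, the motor that separates spindle poles, went from a mean of 54.2 ± 4.02 in control to 69.7 ± 4.04 in knockdown (CPM with SD, 4 libraries a group) with a log2 fold change of 0.36, and its backup KIF15 had one of 0.44. KIF4A, a chromokinesin that also works with PRC1 in the midzone, had 0.37, and its near-identical intronless copy KIF4B stayed at 4 to 7 counts in every library, where reads may have been divided between the copies. KIF18A, which damps chromosome movement at the metaphase plate, had a log2 fold change of 0.51 with a wider error (SE 0.174, edgeR adjusted p = 0.0134).

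The 3 mitotic kinesins not called were KIF23, KIF14 and KIF20B. KIF23, the motor subunit of centralspindlin, had 107, 105, 92.2 and 106 CPM in control replicates 1 to 4 and 105, 102, 102 and 100.4 CPM in knockdown replicates 1 to 4. Its groups overlapped, with a log2 fold change of 0.0011 (SE 0.0512, edgeR adjusted p = 0.982), and with the regional shift taken out, its neighbours having a median of -0.24, it was 0.24 and called. KIF14, which recruits citron kinase to the midbody, had 33.02, 31.1, 24.4 and 34.5 CPM in control replicates 1 to 4 and 36.3, 37.5, 35.2 and 30.7 CPM in knockdown replicates 1 to 4. The highest control lay inside the knockdown range, and the value of 0.18 was not called (edgeR adjusted p = 0.161). KIF14 was called with no filter on low counts and with the regional shift taken out, at 0.28. KIF20B had a log2 fold change of 0.14 (SE 0.162).

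Of the chromosomal passenger complex, which senses tension at centromeres and later moves to the midzone, the kinase changed most. AURKB (chromosome 17, 8204733 to 8210600, minus strand), its catalytic subunit, had 15.4, 14.1, 13.7 and 14.9 CPM in control replicates 1 to 4 and 30.8, 32.4, 28.6 and 29.9 CPM in knockdown replicates 1 to 4. Each knockdown library was above every control, and the mean was 2.09-fold higher (log2 fold change 1.07 with SE 0.0536, edgeR adjusted p = 1.42e-14). BIRC5 (survivin), which docks the complex on centromeric chromatin, rose by a smaller step, from a mean of 119 ± 2.62 in control to 139 ± 3.74 in knockdown (CPM with SD, 4 libraries a group), a log2 fold change of 0.22. CDCA8 (borealin) had 49.8, 49.5, 50.6 and 47.4 CPM in control replicates 1 to 4 and 58.6, 57.3, 52.4 and 58.7 CPM in knockdown replicates 1 to 4. Its groups did not overlap, and the log2 fold change was 0.204 (SE 0.0435, edgeR adjusted p = 0.000313). The neighbours of CDCA8 had a median of 0.22, and with the regional shift taken out its value was -0.018 and no longer called. INCENP, the scaffold that binds and activates the kinase, had 65.4, 64.8, 67.8 and 64.3 CPM in control replicates 1 to 4 and 62.3, 66.9, 65.6 and 65.6 CPM in knockdown replicates 1 to 4, with overlapping groups and a log2 fold change of -0.0099 (SE 0.0278, edgeR adjusted p = 0.834). With the regional shift taken out INCENP was 0.24 and called. Per kb of merged exons the scaffold was at 14.7 CPM in control and 14.6 CPM in knockdown while AURKB went from 6.48 to 13.6.

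All 5 spindle checkpoint genes were higher in knockdown, with a median of 0.46. TTK (MPS1, chromosome 6, 80003887 to 80042527, plus strand), the kinase that starts the signal at unattached kinetochores, had 32.4, 31.6, 23.7 and 36.2 CPM in control replicates 1 to 4 and 63.4, 58.4, 57.7 and 52.5 CPM in knockdown replicates 1 to 4. Control replicate 3 was the lowest control, and the groups did not overlap (log2 fold change 0.904 with SE 0.141, edgeR adjusted p = 0.00029). Without control replicate 3 the value of TTK was 0.79. BUB1, the kinase recruited next, went from a mean of 71.2 ± 2.42 in control to 119.5 ± 1.19 in knockdown (CPM with SD, 4 libraries a group), with a log2 fold change of 0.75, and BUB3, its binding partner at kinetochores, had one of 0.46. MAD2L1 (MAD2), which with BUB1B holds back CDC20, had a log2 fold change of 0.27 (SE 0.0580). BUB1B (BUBR1) had 89.7, 91.6, 81.7 and 89.3 CPM in control replicates 1 to 4 and 103, 97.01, 101 and 100.2 CPM in knockdown replicates 1 to 4, the smallest step of the group (log2 fold change 0.19 with SE 0.0409, edgeR adjusted p = 0.000203). The neighbours of BUB1B on chromosome 15 had a median of -0.49, and with that shift taken out its value was 0.68. BUB1B shares 457 bp of exon with the read-through gene BUB1B-PAK6. Few counts were assigned to that gene, a mean of 1.75 a library against 2089 for BUB1B.

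Of the 7 kinetochore genes, 5 were higher, 1 was lower and 1 was not called, with a median of 0.45. CENPA (chromosome 2, 26764289 to 26801067, plus strand), the histone H3 variant that marks centromeres, had 25.9, 29.3, 26.9 and 27.6 CPM in control replicates 1 to 4 and 44.7, 41.9, 46.04 and 45.8 CPM in knockdown replicates 1 to 4. The groups were well apart (log2 fold change 0.701 with SE 0.0485, edgeR adjusted p = 3.92e-12). CENPA shares 138 bp of exon with SLC35F6 on the same strand, and the summed CPM of both genes had a log2 ratio of 0.31. NDC80 and NUF2, which form the microtubule-binding end of the Ndc80 complex, had log2 fold changes of 0.67 (SE 0.126) and 0.43 (SE 0.130). At the other end of that complex SPC25 had 0.45 (SE 0.0738) and its partner SPC24 -0.14. SPC24 had 16.6, 16.8, 18.6 and 15.9 CPM in control replicates 1 to 4 and 15.1, 15.5, 15.2 and 15.6 CPM in knockdown replicates 1 to 4, with groups that came close but did not overlap. The edgeR adjusted p of SPC24 was 0.0496, and the call was lost in 17 of 18 alternatives, over which its adjusted p ranged from 0.0261 to 1. CENPF, a large outer kinetochore protein, went from a mean of 255 ± 35.4 in control to 401 ± 33.2 in knockdown (CPM with SD, 4 libraries a group), a log2 fold change of 0.65. CENPE, the kinesin that carries chromosomes to the metaphase plate under a name outside the KIF series, had the largest SE among the mitotic members. It had 60.1, 55.8, 38.8 and 67.96 CPM in control replicates 1 to 4 and 67.6, 63.01, 60.8 and 42.6 CPM in knockdown replicates 1 to 4, with overlapping groups and no call (log2 fold change 0.071, SE 0.228, edgeR adjusted p = 0.781), and control replicate 3 and knockdown replicate 4 were the lowest of their groups.

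The 3 spindle assembly genes were higher. PLK1 (chromosome 16, 23677656 to 23690367, plus strand), the kinase that matures centrosomes and triggers many mitotic steps, had 96.2, 92.1, 100.3 and 93.9 CPM in control replicates 1 to 4 and 167, 158, 161 and 175 CPM in knockdown replicates 1 to 4. The groups did not overlap (log2 fold change 0.79 with SE 0.0427, edgeR adjusted p = 2.22e-15). TPX2, which activates Aurora A and seeds microtubules near chromosomes, had 139, 144, 143 and 142 CPM in control replicates 1 to 4 and 204, 195, 203 and 211 CPM in knockdown replicates 1 to 4, again without overlap (log2 fold change 0.52, SE 0.0257). NEK2, which splits the linker between centrosomes, had a log2 fold change of 0.58.

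Of the anaphase and cytokinesis genes, 5 of 7 were higher and 2 lower, with a median of 0.32. PTTG1 (securin, chromosome 5, 160421822 to 160428744, plus strand), the inhibitor that keeps separase shut until anaphase, had 45.9, 47.5, 50.2 and 47.3 CPM in control replicates 1 to 4 and 113, 102, 103 and 111 CPM in knockdown replicates 1 to 4. The mean was 2.24-fold higher (log2 fold change 1.17 with SE 0.0455, edgeR adjusted p = 5.66e-18). The neighbours of PTTG1 had a median of 0.37, and with the regional shift taken out its value was 0.79. PTTG1 has near-identical copies elsewhere in the genome, so its level is uncertain where counting split reads among them. ESPL1, separase itself, had a log2 fold change of 0.304, and CDC20, which switches on the anaphase-promoting complex, one of 0.53. ECT2 (chromosome 3, 172750682 to 172821474, plus strand), the exchange factor that activates RhoA at the cleavage furrow, had 248, 233, 194 and 244 CPM in control replicates 1 to 4 and 160.3, 154, 152 and 141 CPM in knockdown replicates 1 to 4. All knockdown libraries were below all controls (log2 fold change -0.599 with SE 0.0900, edgeR adjusted p = 0.000174). PRC1, which bundles antiparallel microtubules in the midzone, had 167, 165, 163 and 163 CPM in control replicates 1 to 4 and 137, 141, 135 and 142 CPM in knockdown replicates 1 to 4, lower in 4 of 4 libraries (log2 fold change -0.25 with SE 0.0192, edgeR adjusted p = 4.3e-07). PRC1 shares 3181 bp, or 57.6% of its exon bases, with a longer gene on the same strand (ENSG00000284946), whose own log2 fold change was 0.068; the summed CPM of the pair had a log2 ratio of -0.20. The neighbours of PRC1 had a median of -0.54, and with the regional shift taken out PRC1 was at 0.30, higher and called. RACGAP1, the partner of KIF23 in centralspindlin and a binding site for ECT2, went from a mean of 135 ± 3.70 in control to 177 ± 1.73 in knockdown (CPM with SD, 4 libraries a group), a log2 fold change of 0.39, and anillin, ANLN, which scaffolds the contractile ring, had 0.32. Of centralspindlin and its partner, RACGAP1 was called higher, ECT2 lower and KIF23 neither.

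The proliferation markers were both higher. TOP2A, the topoisomerase that untangles sister chromatids, had 796, 779, 659.7 and 814 CPM in control replicates 1 to 4 and 1169.9, 1174, 1144 and 1060.5 CPM in knockdown replicates 1 to 4 (log2 fold change 0.58 with SE 0.0769, edgeR adjusted p = 2.47e-05). MKI67, which coats mitotic chromosomes, had 369.8, 384, 348 and 385 CPM in control replicates 1 to 4 and 477, 507, 488 and 488 CPM in knockdown replicates 1 to 4 (log2 fold change 0.398 with SE 0.0391, edgeR adjusted p = 2.07e-10). Neither gene had overlapping groups. TOP2A lies near ERBB2 on chromosome 17 and its neighbours had a median of -0.56. With the regional shift taken out the value of TOP2A was 1.14. Per kb of merged exons TOP2A was the most abundant member in both groups, at 118 and 177 CPM, followed by CDC20 at 75.8 and 109.8 CPM and ANLN at 59.4 and 74.1 CPM.

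**Figure D2:**
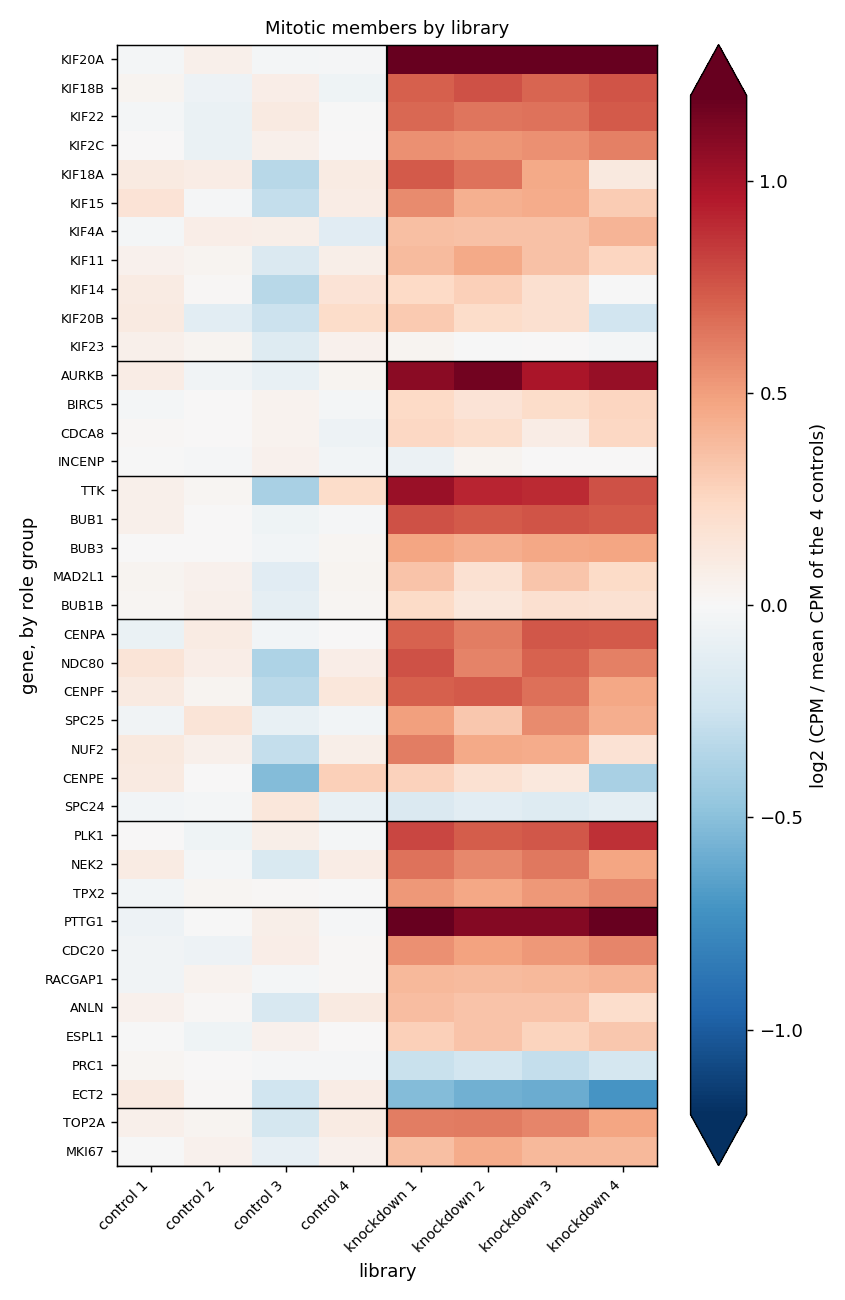
Each row is a tested mitotic member and each column a library; colour gives log2 of its CPM over the mean of the 4 controls, and lines divide the role groups. Colours stop at 1.2 on either side. Knockdown columns are red for most rows and blue for ECT2, PRC1 and SPC24, and control replicate 3 is the lowest control in 22 of 39 rows and the highest in 11.

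The other kinesins are given by family. Kinesin-1 moves cargo such as mitochondria along microtubules and has 3 heavy chain genes. KIF5B, the form found in all tissues, had 149.5, 140.0, 115 and 140.3 CPM in control replicates 1 to 4 and 144, 148, 141 and 129 CPM in knockdown replicates 1 to 4, with overlapping groups (log2 fold change 0.048, SE 0.0934, edgeR adjusted p = 0.616). KIF5C (chromosome 2, 148875250 to 149026759, plus strand), a form best known from neurons, had 12.2, 13.9, 10.5 and 12.1 CPM in control replicates 1 to 4 and 0.808, 0.819, 0.662 and 0.509 CPM in knockdown replicates 1 to 4. It was 17.4-fold lower in knockdown (log2 fold change -4.099 with SE 0.175, edgeR adjusted p = 8.21e-19). KIF5A (chromosome 12, 57549998 to 57586632, plus strand), the other neuronal form, had 0.275, 0.182, 0.427 and 0.345 CPM in control replicates 1 to 4 and 5.53, 6.55, 6.21 and 6.76 CPM in knockdown replicates 1 to 4, from 4 to 9 counts per control library, and was 20.4-fold higher (log2 fold change 4.33 with SE 0.252). Per kb of merged exons KIF5B made up 94.4% ± 0.434 of the family in control and 95.7% ± 0.455 in knockdown (SD, n = 4 each). The remainder went from 5.40% ± 0.441 KIF5C and 0.206% ± 0.0922 KIF5A to 0.301% ± 0.0486 KIF5C and 4.01% ± 0.498 KIF5A (SD, n = 4 each). The summed level of the 3 genes was 24.5 CPM per kb ± 2.63 in control and 25.0 ± 1.39 in knockdown (SD, n = 4 each). With the regional shift taken out KIF5B was lower, at -0.37 and called, its neighbours having a median of 0.42.

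Kinesin-2 drives transport in cilia as a KIF3A and KIF3B pair, or KIF3A with KIF3C. KIF3A (chromosome 5, 132692628 to 132737638, minus strand) had 11.04, 10.1, 7.88 and 10.1 CPM in control replicates 1 to 4 and 26.9, 31.1, 30.7 and 28.3 CPM in knockdown replicates 1 to 4. It was 2.99-fold higher (log2 fold change 1.58 with SE 0.115, edgeR adjusted p = 2.27e-14), and it lies where neighbouring genes had a median of 1.06. With the regional shift taken out the value of KIF3A was 0.51 and still called. KIF3B had 47.5, 48.4, 47.2 and 45.7 CPM in control replicates 1 to 4 and 35.2, 37.4, 33.4 and 36.4 CPM in knockdown replicates 1 to 4, lower in 4 of 4 libraries (log2 fold change -0.41 with SE 0.0392, edgeR adjusted p = 2.67e-08), and KIF3C was higher at 0.73. The level of KIF3A over KIF3B per kb went from 0.185 ± 0.0254 to 0.733 ± 0.0620 (SD, n = 4 each), a log2 change of 2.00 (SE 0.121). By exact permutation over libraries, two-sided, p was 0.0286 for this ratio, the smallest that 4 against 4 libraries allow. It was the same for each of the other 3 ratios tested (KIF3C over KIF3B, KIF5C over KIF5B and KIF13A over KIF13B), and 0.0286 after adjustment over the 4. These p-values lend no further support, because the values of the single genes fixed them beforehand. KIF3A, KIF3C and KIF13A were above, and KIF3B and KIF13B below, all controls in every knockdown library. KIF5C fell 17.4-fold beside a KIF5B whose groups overlapped.

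Kinesin-3 motors carry vesicles and endosomes. KIF13B (chromosome 8, 29067279 to 29263124, minus strand) had 44.4, 47.8, 46.7 and 44.6 CPM in control replicates 1 to 4 and 5.78, 6.76, 6.21 and 5.37 CPM in knockdown replicates 1 to 4, a 7.61-fold fall (log2 fold change -2.92 with SE 0.0754, edgeR adjusted p = 7.59e-23). Its closest relative KIF13A, a carrier of recycling endosomes, went the other way, from a mean of 60.5 ± 1.85 in control to 103 ± 2.41 in knockdown (CPM with SD, 4 libraries a group), with log2 fold change 0.77 with SE 0.0281, edgeR adjusted p = 2.79e-15. The ratio of KIF13A to KIF13B per kb went from 1.32 ± 0.0478 to 17.2 ± 1.84 (SD, n = 4 each), a log2 change of 3.70 (SE 0.0803). KIF16B, which carries early endosomes, had 75.1, 69.4, 64.8 and 69.8 CPM in control replicates 1 to 4 and 30.1, 32.8, 31.4 and 29.01 CPM in knockdown replicates 1 to 4, with no overlap (log2 fold change -1.18 with SE 0.0581, edgeR adjusted p = 1.07e-16). KIF1B, a carrier of mitochondria and synaptic vesicle precursors, had 94.1, 96.9, 91.8 and 92.5 CPM in control replicates 1 to 4 and 49.7, 57.8, 52.6 and 58.1 CPM in knockdown replicates 1 to 4, also lower in all 4 (log2 fold change -0.78 with SE 0.0574, edgeR adjusted p = 8e-14). KIF1C, the most abundant of these per kb in control at 26.9 CPM, fell by 0.57 on the log2 scale. KIF1A (chromosome 2, 240713761 to 240821036, minus strand), a neuronal carrier, had, in replicate order, counts of 0, 1, 3 and 0 in the controls against 64, 63, 47 and 50 in the knockdown libraries. The ratio of its levels was 55.3, with a 95% exact interval for counting error of 21.3 to 204.8. Without control replicate 3, which holds 3 of its 4 control counts, the fitted log2 fold change of KIF1A was 6.93 in place of 5.62. The kinesin-3 genes KIF13B, KIF16B, KIF1B and KIF1C were called lower and KIF13A higher.

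**Figure D3:**
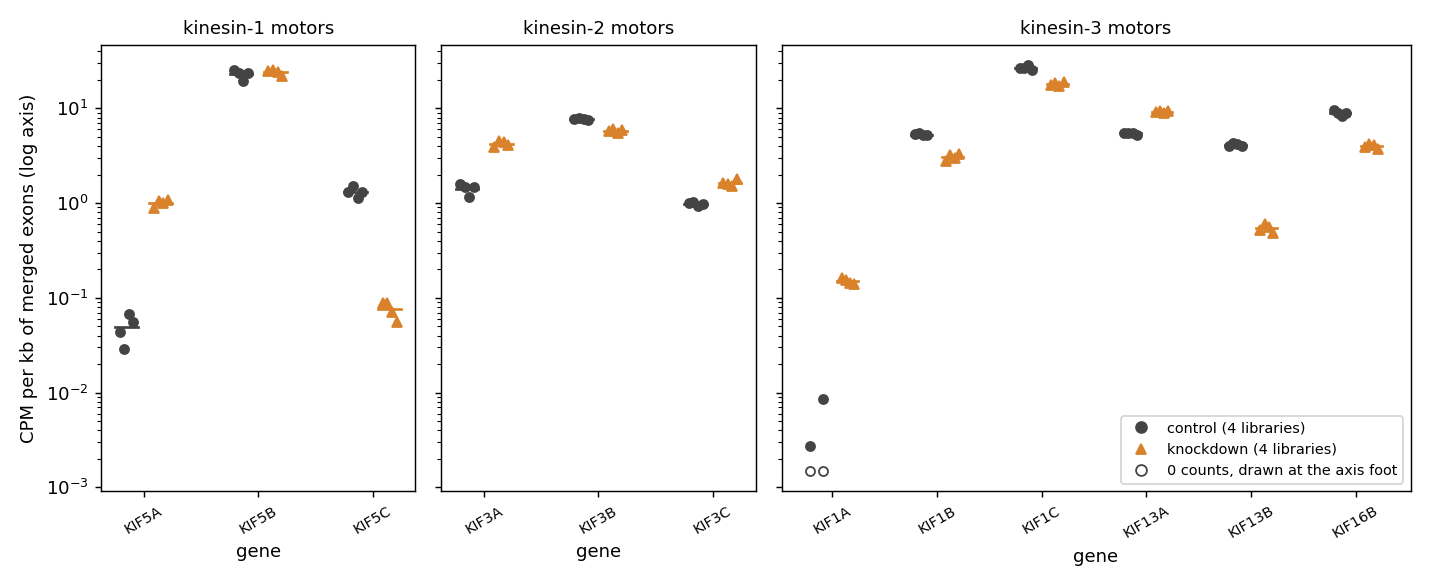
Level of each kinesin-1, kinesin-2 and kinesin-3 gene in CPM per kb of merged exons on a log axis, with a point for each of 4 control (grey circles) and 4 knockdown (orange triangles) libraries and a line at the group mean. KIF5A and KIF5C change places below KIF5B, whose groups overlap, and KIF13B falls while KIF13A rises; open circles mark the control libraries of KIF1A with 0 counts.

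The remaining kinesins include orphans and ciliary motors. KIF26A (chromosome 14, 104138723 to 104180894, plus strand), an atypical kinesin without ATPase activity, had 5.54, 4.99, 5.94 and 6.38 CPM in control replicates 1 to 4 and 19.1, 24.7, 17.9 and 23.4 CPM in knockdown replicates 1 to 4. The groups were far apart (log2 fold change 1.897 with SE 0.134, edgeR adjusted p = 2.16e-10). KIF21B and KIF21A, which pause microtubule growth, had log2 fold changes of 1.501 (SE 0.116) and 0.26 (SE 0.0855). KIF21A had 71.4, 66.9, 57.1 and 71.8 CPM in control replicates 1 to 4 and 80.9, 83.9, 81.8 and 74.4 CPM in knockdown replicates 1 to 4, and with the regional shift taken out, its neighbours having a median of 0.33, it was at -0.066 and not called. KIF19, which trims the tips of motile cilia, had 0 counts in every control library and, in replicate order, 18, 16, 15 and 14 in knockdown. Against a floor of 3 counts per library this was at least 4.97-fold higher, for counting error only. KIF9 and KIF27, low genes also linked to cilia, had log2 fold changes of 0.502 and 0.56, while KIF24, which keeps cilia from forming, had -0.33 (SE 0.102), and 0.20 with the regional shift taken out. KIF9 overlaps exons of KIF9-AS1 and KLHL18 on the opposite strand. KIF2A, a depolymerase active in interphase and mitosis, had 67.8, 65.6, 61.5 and 67.4 CPM in control replicates 1 to 4 and 66.99, 71.6, 68.3 and 64.3 CPM in knockdown replicates 1 to 4, overlapping and not called at 0.048. Of its exons 428 bp are shared with IPO11. KIF2A passed the threshold as higher when scaled by the upper quartile or by library size alone, and as lower with the regional shift taken out, at -0.23. KIF7, the ciliary kinesin of Hedgehog signalling, had 1.05, 1.13, 0.712 and 0.776 CPM in control replicates 1 to 4 and 0.935, 0.983, 0.917 and 0.879 CPM in knockdown replicates 1 to 4, a log2 fold change of 0.017 (edgeR adjusted p = 0.951). KIF7 shares 589 bp of exon with TICRR on the opposite strand, a gene with a mean of 1116 counts against 20.5 for KIF7, so its value is uncertain. With the regional shift taken out KIF7 was called higher, at 0.56. KIF12 had between 18 and 29 counts in control and between 15 and 23 in knockdown, and its log2 fold change of -0.31 was not called (SE 0.159, edgeR adjusted p = 0.223). Below the filter, KIF17 had between 1 and 5 counts in control and between 7 and 17 in knockdown, a ratio of 4.25 with a 95% exact interval of 2.10 to 9.48. KIF26B had 0 counts in control and at most 5 in knockdown, KIF25 had at most 2 in any library, and KIF6 had between 5 and 11.

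Fold changes in this comparison shift along chromosomes, so each member was set beside the median of its 50 nearest tested coding genes. The mitotic members had a median neighbour value of -0.0041 and exceeded their own neighbours by a median of 0.51, with 37 of 39 above them; ECT2 and CDCA8 were below. Over all genes tested the same difference had a median of 0.00095. Of the 16430 genes tested, 8106 lay above their neighbours, with genes lacking a neighbour value counted as not above. For the other kinesins 13 of 22 lay above their neighbours, with a median difference of 0.28. KIF19, KIF1A and KIF5A, which passed the filter only through knockdown and had to differ, are among the 13 and raise that median. They lend nothing to either value. When the regional shift was taken out before testing, 46 members were higher, KIF19, KIF1A and KIF5A again among them, and 9 lower. The share of all genes called in that fit is not given here, so these counts have no such share beside them.

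**Figure D4:**
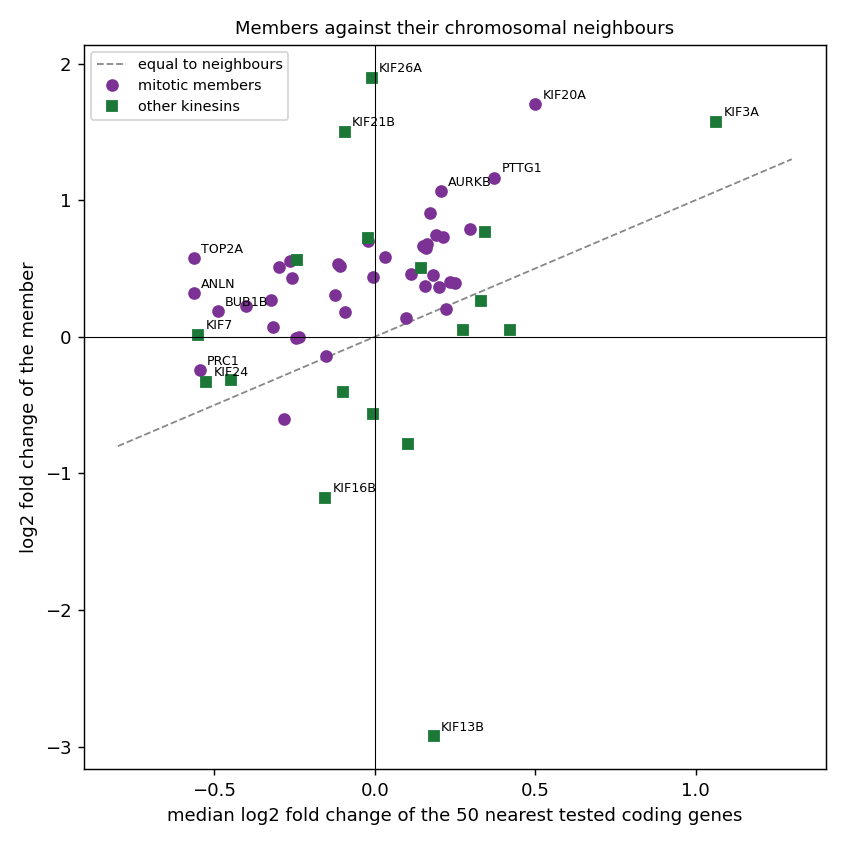
Log2 fold change of each member against the median log2 fold change of its 50 nearest tested coding genes, for 57 tested members; 4 with an absolute value of 3 or more are left out. Mitotic members (circles) lie above the dashed line of equality except ECT2 and CDCA8, and KIF20A, KIF3A and PTTG1 have raised neighbours.

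Other genes of cell division were read from lists chosen by function, each count to be read against the 39.4% of all genes tested that were higher and the 37.7% that were lower. Mitotic cyclins and their regulators were 8 higher and 1 lower of 11 tested, with a median of 0.39: the phosphatase CDC25C was at 1.62, CDK1 at 1.06 and CCNB1 at 0.96 on the log2 scale, and the inhibitory kinase PKMYT1 at -0.34. Cohesin and condensin had 10 higher and 2 lower of 16, with a median of 0.35, led by the condensin subunits NCAPG at 1.05 and NCAPD2 at 1.03, with the cohesin regulator PDS5B at -0.68. Replication genes had 15 higher and 4 lower of 20 and a median of 0.40, with MCM10 at 1.23 and RRM2 at -0.66. Further kinetochore genes had 15 higher and 7 lower of 31, a median of 0.15, with CENPH at 1.49 and CENPU at -0.95. Further spindle and centrosome genes had 12 higher and 4 lower of 25, a median of 0.15, with HMMR at 1.602 and NUMA1, which gathers microtubules at the poles, going from 365 to 159 CPM. The anaphase-promoting complex had 8 higher and 7 lower of 18, near the shares of all genes, and a median of 0.078, from ANAPC2 at -0.98 to CDC23 at 1.21. Further checkpoint and passenger genes were 3 higher and 3 lower of 9, a median of 0.040, with TRIP13 at 0.98 and MAD1L1 at -0.48. Further cytokinesis genes were 3 higher and 7 lower of 10, a median of -0.26, with SEPTIN9 at -1.31 and the myosin heavy chain MYH10 at 2.67.

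The regulators of mitotic transcription had 12 higher and 7 lower of 20 tested and a median of 0.24. MYBL2 was at 0.61 and LIN37 at 1.01 on the log2 scale, both parts of MuvB complexes, and FOXM1, which drives G2 genes, at -0.13. Of the NF-Y subunits that bind CCAAT boxes, NFYA was at 1.07, NFYB at -1.68 and NFYC at 0.15. TFDP2, a partner of E2F factors, had the largest rise, at 3.42. All of these passed the test; FOXM1 and the MuvB and NF-Y genes, like KIFAP3 and CCNB1, were singled out for their function after their values were seen.

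The tracks and partners of the motors were also examined. Tubulins had 7 higher and 4 lower of 13 tested, a median of 0.31, and a wide range: TUBB3, a neuronal beta-tubulin, was at 4.07 and TUBA4A at -4.598 on the log2 scale, and TUBB4A, which passed the filter only through knockdown and so had to differ, went from 0.024 CPM to 1.64 CPM. Kinesin light chains and cargo adaptors had 6 higher and 6 lower of 13, a median of 0.11, with the adaptors SPAG9 at 1.66 and TRAK1 at 1.24 and the light chain KLC2 at -0.74. KIFAP3, the accessory subunit of KIF3A and KIF3B, was at 0.54. Cytoplasmic dynein and dynactin, the opposing motor, had 3 higher and 8 lower of 16, a median of -0.14, with DCTN1 at -0.62. One of the 3 higher, DYNC1I1, an intermediate chain best known from brain, had 4 counts or fewer per control library against 33 to 40 in knockdown. It passed the filter only through knockdown and so had to differ. Ciliary transport genes had 6 higher and 11 lower of 23, a median of -0.031, with IFT46, a subunit of the intraflagellar transport complex, at -2.597.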

How the data were processed

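The mRNA of 8 SKBR3 libraries, 4 control and 4 FOXA1 knockdown, was sequenced as paired-end reads on an Illumina NextSeq 550, per the labels' protocols. The authors deposited 1 table of whole-number counts per gene for 30434 genes, and per the submitters' processing notes the tools were FastQC, Salmon 1.9 and DESeq2 3.16 with build hg38. The annotation, the strand setting, and whether the deposited counts are rounded estimates are not given in the sources used here; without strand, reads of overlapping genes on opposite strands cannot be told apart.

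Counts were tested as deposited with edgeR 4.0.16 in R 4.3.3 (TMM, quasi-likelihood F test, robust), after a filter of 10 counts a library and 15 in total (16430 of 30434 genes kept), with Benjamini-Hochberg adjustment over all genes kept and a threshold of 0.05. CPM are TMM-scaled, and 3 counts, the limit that a count of 0 allows, are between 0.123 and 0.153 CPM. Intervals and limits cover counting error only. The common biological coefficient of variation was 4.56%. Positions and exon lengths come from GENCODE 29, to which 29358 genes were matched, and promoters from RefSeq. The regional shift of a gene, taken out as an offset, is the median of log2 fold changes over its 50 nearest coding genes among those tested. The offset is fixed, so p-values and calls of that fit cover the spread between libraries and not the error of the median. Tables and tests of single values used Python 3.11.15, numpy 2.4.6, pandas 2.3.3 and scipy 1.17.1, and figures matplotlib 3.10.9. The scripts were tested on simulated data.

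Alternatives were other scalings, filters, tools (DESeq2 1.42.0, limma 3.58.1), a test against a 1.5-fold change, a replicate block, the regional shift and leaving out each library. Values in every library are given for the members with the largest and smallest change in each role group, for mitotic members called lower, for the 4 largest rises and falls among the other kinesins, and for members whose call changed under any alternative except the 1.5-fold test. The members, the lists and the rule were chosen with earlier results of these data known. One gene of a pathway list that the rule would name is not reported here.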

Additional observations from a re-analysis of the deposited data

Results flagged for a closer look

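A library was singled out where its distance to the nearest of the other 3 in its group exceeded Dixon's 95% critical share of the group's range. Among 124 groups of 4 values this held for 10, where chance gives about 1 in 20, or 6.2. Control replicate 3 accounts for 6 of the 10. It was low in 5 mitotic members. NDC80 was at 14.2 CPM against 19.4 to 20.4 in the other controls, and KIF18A at 9.12 against 12.2 to 12.4. KIF11 was at 48.2 CPM against 55.5 to 56.7. KIF23 was at 92.2 CPM against 104.7 to 106.6, and MAD2L1 at 58.3 against 65.5 to 66.4. The same library was at -40.1 on the second principal component of all genes, with the other controls between 9.53 and 16.3.

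The remaining 4 came from other libraries and small distances. KIF20A was at 73.2 CPM in control replicate 2 against 68.6 to 69.2, and KIF9 at 3.54 in that library against 4.70 to 4.90. KIF13A was at 57.8 CPM in control replicate 4 against 61.3 to 61.7. BUB3 was at 147.8 CPM in knockdown replicate 2 against 150.5 to 151.0.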

How the results depend on the processing

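Leaving out each library gave 42 to 42 members higher, 9 to 10 lower, and a median log2 fold change of 0.38 to 0.44. The test against a 1.5-fold change left 17 members higher and 4 lower, with 3 mitotic kinesins and 6 non-kinesin genes higher and 4 other kinesins lower, by its construction. The share of all genes called is not given here for this test, for the fits without a library or for the replicate block. Their counts therefore have no such share beside them and cannot be read as a result about the members. Scaling by library size only moved the median from 0.43 to 0.51, against an SD between libraries of 0.068. Of 61 tested members, 48 had the same call and sign under every alternative but the 1.5-fold test. Deviations of same-numbered libraries from their group means had r between -0.031 and 0.056, and those of other pairs across groups between -0.041 and 0.051. No pairing by number was seen, but such values cannot show whether same-numbered libraries were prepared together. With the replicate block 42 members were higher and 9 lower.

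With the regional shift taken out, these members changed sign: PRC1 to 0.30, INCENP to 0.24, KIF24 to 0.20, KIF12 to 0.13, SPC24 to 0.0105, CDCA8 to -0.0185, KIF21A to -0.0664, KIF2A to -0.23 and KIF5B to -0.37. Values near 0 also changed sign elsewhere, none of them called. INCENP was at 0.0496 with upper-quartile scaling, 0.0742 with library size only and 0.0045 with a mean of at least 50 counts, and from -0.026 (without control replicate 4) to 0.016 (without knockdown replicate 1) when a library was left out. KIF23 was at -0.0008 with RLE scaling and with DESeq2, and from -0.0499 (without control replicate 3) to 0.0184 (without control replicate 1) when a library was left out. In the same way CENPE ranged from -0.0704 (without control replicate 3) to 0.1945 (without knockdown replicate 4). KIF5B ranged from -0.0294 (without control replicate 3) to 0.0933 (without control replicate 1), and KIF7 from -0.0881 (without control replicate 3) to 0.1326 (without control replicate 2). The cause of these changes was not tested. Depth limits KIF7, KIF12, KIF19, KIF1A and KIF27, with at most 64 counts in any library.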
